A study of Mus musculus with 6 samples.

Results

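Progression from G1 into S phase is driven by cyclin-dependent kinases (CDKs), and 2 families of small proteins hold these kinases back. The CIP/KIP inhibitors, such as p21 (Cdkn1a) and p27 (Cdkn1b), bind cyclin-CDK complexes, above all those of CDK2. The INK4 inhibitors p16 (Cdkn2a), p15 (Cdkn2b), p18 (Cdkn2c) and p19 (Cdkn2d) are built of ankyrin repeats and bind the monomeric kinases CDK4 and CDK6. Cyclins G1 (Ccng1) and G2 (Ccng2) are atypical cyclins that do not drive the cycle. Ccng1 is a transcriptional target of p53, as is Cdkn1a, and Ccng2 is a target of FoxO factors, as is Cdkn1b. In the mouse heart, cardiomyocytes leave the cell cycle in the first days after birth, and p21 and p27 are among the proteins known to take part in that exit.

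These genes were followed in ventricle RNA of 14-day-old (P14) mice, with 3 libraries labelled control and 3 labelled Cend1-KO. The 8 members, Cdkn1a, Cdkn1b, Cdkn2a, Cdkn2b, Cdkn2c, Cdkn2d, Ccng1 and Ccng2, were chosen by gene symbol, as CIP and INK4 inhibitors together with the cyclins G, and all 8 were found among 57010 gene identifiers. Cend1 takes its name from the exit of neuronal precursors from the cell cycle, and the study's title links its suppression by LSD1, a histone demethylase, to heart regeneration. The control columns of the deposited data carry WT (wild type) in their names. The sources used here do not give the kind of knockout allele, the genotype of the controls beyond WT and control, the strain or the sex. Nor do they say whether each library came from its own animal, so the p-values rest on a spread among libraries that could be technical. The comparison asks whether these brakes of the cell cycle differ when Cend1 is missing.

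Levels are TPM made by the authors (transcript abundance scaled by gene length and library total), so members can be compared with each other, but no depth is kept and the depth of each library is unknown. Cend1 (chromosome 7, 141426446 to 141429491) had 1.44, 1.99 and 1.54 TPM in the controls and 0 in every Cend1-KO library. Mitochondrial-genome transcripts took 18.3% to 19.9% of the total in controls and 17.9% to 34.9% in Cend1-KO libraries, with the highest share in replicate 3. That share lowers every other value in the library. So does that of nuclear copies of mitochondrial genes, 8.63% to 9.53% in controls and 8.08% to 17.3% in Cend1-KO libraries. The factors that bring the libraries to a common median of ratios ran from 0.714 in Cend1-KO replicate 3 to 1.24 in Cend1-KO replicate 1. The latter had 17.9% mitochondrial transcripts, and control replicate 3, with a factor of 0.985, had 18.3%. What set the factors was not tested. Results are therefore given on the deposited scale and after this median-of-ratios scaling. The median difference over all 13542 genes tested was -0.11 on the log2(TPM + 1) scale as deposited and 0.0020 after scaling. Lung epithelial markers (6 genes) summed to at most 0.187 TPM in controls and to 499.9, 0.334 and 822.5 TPM in Cend1-KO replicates 1, 3 and 4. Xist, the X-inactivation transcript of female cells, reached 16.4 TPM in control replicate 4 and 7.37 TPM in Cend1-KO replicate 1 and at most 0.055 TPM elsewhere.

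A stretch of promoter is shown for Cdkn2d and Ccng2, the members called after scaling, for Cdkn2c and Cdkn1b, which are set against them as ratios, and for Ccng1, the most abundant member. RefSeq windows (GRCm38.p6) were found for all 8 members, 11 windows in all since some genes have several start sites. The 250 bases before each start site were searched on both strands for a GC box, spelled GGGCGG, and for the CCAAT box. The E2F-type motif searched was TTTNNCGC. The FoxO-type motif was TGTTTAC. The CHR-type motif was TTTGAA. Each line gives 30 bases, 5′ to 3′ on the strand of the gene, and shows 1 motif. Capitals mark the match of that motif nearest to the start site, and a match of another motif can lie nearer. The first 4 show the GC box and the last the CCAAT box, and a motif on the opposite strand reads as its reverse complement.
Cdkn2d (chr9:21291230-21291259, minus strand): tcagagcagaccCCGCCCgcgcaaggaaag
Cdkn2c (chr4:109666779-109666808, minus strand): tgggcggggcgtGGGCGGggcccggccttc
Cdkn1b (chr6:134920328-134920357, plus strand): gctcgccagcctGGGCGGagcggctcccgg
Ccng2 (chr5:93267520-93267549, plus strand): cagtcacgcgccCCGCCCcttgggggcgtc
Ccng1 (chr11:40755311-40755340, minus strand): aagtgtgcgctgATTGGccgagcttcctca

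GC boxes stood 3 times each in the window of Cdkn2d and in one window of Cdkn2c, 2 times each in one window of Cdkn1a and one of Cdkn2a, and once in those of Cdkn1b and Ccng2. The CCAAT box stood 3 times in the window of Ccng1, 2 times in that of Cdkn1b and once in that of Cdkn2d. A GC box was present in 32.7% of 32851 RefSeq windows and a CCAAT box in 33.8%. The E2F-type motif (4.28% of windows) was matched in both windows of Cdkn2a, the CHR-type motif (16% of windows) in that of Cdkn2b, and the FoxO-type motif (3.17% of windows) in none of the 11. No match overlapped a match of another motif. In GENCODE M21 the stretches of Cdkn2d, Cdkn2c and Ccng2 lie inside a noncoding part of an exon, since those gene models begin upstream of the RefSeq start sites. That of Ccng1 touches the first exon and that of Cdkn1b lies before the gene.

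In control ventricles 6 members were well above 1 TPM and 2 were below it. Ccng1 stood highest at 339.3 ± 8.98 TPM (SD, n = 3), and Cdkn1a followed at 43.9 ± 3.99 and Cdkn2d at 39.2 ± 2.51. Next came Cdkn1b at 23.7 ± 1.67, Cdkn2c at 20.9 ± 1.43 and Ccng2 at 12.2 ± 0.403 TPM. The ranges of Cdkn1a and Cdkn2d overlapped, as did those of Cdkn1b and Cdkn2c, although within each control library the first of each pair was higher. Cdkn2a and Cdkn2b were near 0, at 0.462 ± 0.188 and 0.437 ± 0.276 TPM, and could not be ordered. In Cend1-KO libraries Cdkn1b (27.4 ± 9.72 TPM) stood above Cdkn2d (20.0 ± 7.22) in all 3 libraries, and Ccng2 (19.6 ± 7.07) stood above Cdkn2c (17.6 ± 6.13) in all 3, the opposite of the control order. The ranges over the Cend1-KO libraries overlapped for both pairs.

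**Figure D1:**
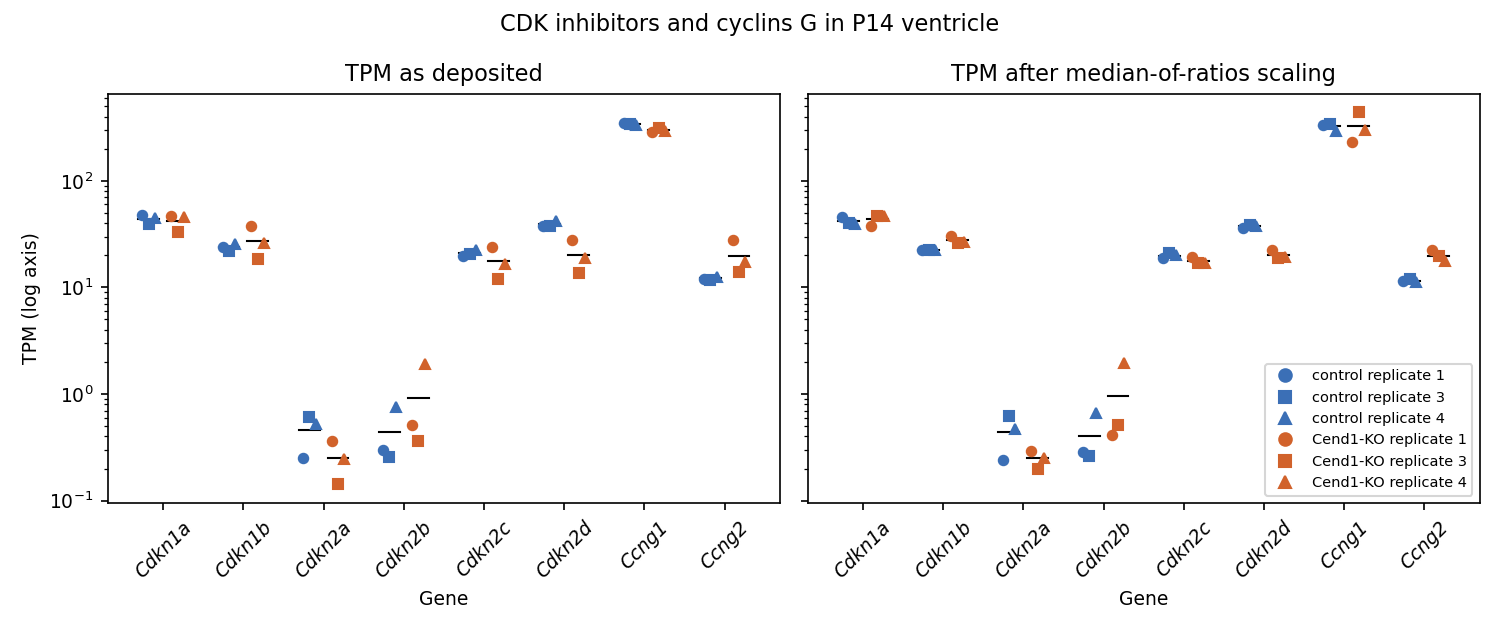
TPM of the 8 member genes in each library, on a log axis, as deposited (left) and after median-of-ratios scaling (right), with 3 control and 3 Cend1-KO libraries and the group mean as a bar. Cdkn2d lies below and Ccng2 above the controls in all 3 Cend1-KO libraries in both panels, while Cdkn1a overlaps in both.

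Of the 6 members tested, limma called 0 as deposited, against 1.70% of all genes (0.790% higher in Cend1-KO and 0.908% lower; Benjamini-Hochberg adjusted p under 0.05 over all genes), and 2 of the 6, Cdkn2d and Ccng2, had an unadjusted p under 0.05, against 15.4% of all genes. After median-of-ratios scaling it called the same 2, Ccng2 higher and Cdkn2d lower, against 10.3% of all genes (6.17% higher and 4.14% lower). Of all genes called, 46.5% were higher as deposited, 59.9% after this scaling, 58.6% after upper-quartile scaling and 72.8% once mitochondrial, nuclear-copy and hemoglobin genes were taken out. Cdkn2a and Cdkn2b did not reach 1 TPM in 3 libraries and were not tested. Groups did not overlap for 3 of the 6 as deposited (Cdkn2d, Ccng1 and Ccng2) and for 3 after scaling (Cdkn1b, Cdkn2d and Ccng2), against 24.3% and 34.9% of all tested genes.

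Cdkn2d (ENSMUSG00000096472; chromosome 9 of mm10, 21288410 to 21291407, on the minus strand) encodes p19, an INK4 inhibitor expressed in postmitotic neurons among other cells. Control replicates 1, 3 and 4 had 37.5, 38.0 and 42.1 TPM, and Cend1-KO replicates 1, 3 and 4 had 27.8, 13.6 and 18.7 TPM. Every Cend1-KO library lay below every control. The log2 difference was -0.99 (SE 0.27; 95% confidence interval -1.57 to -0.41; limma adjusted p = 0.0918), which did not pass the test. After scaling the levels were 35.8, 38.6 and 37.4 TPM in controls and 22.4, 19.0 and 19.1 TPM in Cend1-KO libraries, which drew each group together. On that scale Cdkn2d fell by 0.86 (SE 0.13; limma adjusted p = 0.00468), a level 0.541 times that of controls. The fall held on the scaled values whichever library was left out (adjusted p from 0.00430 to 0.0304). As deposited, the gene also passed without Cend1-KO replicate 1 or 3 (adjusted p = 0.00507 and 0.0312), though not without any of the others (0.204 to 0.281), and with presence of Xist as a covariate (adjusted p = 0.0319).

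Summed levels of markers also differed between the groups. Over 10 cycling-cell markers (such as Mki67 and Top2a), the level was 251.9 to 334.5 TPM in controls and 90.4 to 159.6 TPM in Cend1-KO. As deposited 5 of the 10 fell, against 0.908% of all genes, and none was at 0 in every library. The 8 cardiomyocyte markers summed to 48258 to 53085 TPM in controls and 26495 to 40011 TPM in Cend1-KO libraries, while 0 of the 8 passed the test on either scale. The part of these shifts in the level of Cdkn2d was not tested, and in whole ventricle fewer cells of a type cannot be told apart from less RNA per cell.

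Cdkn2c (ENSMUSG00000028551; chromosome 4, 109660876 to 109667189, minus strand) encodes p18, the INK4 inhibitor nearest to p19 in level. It was at 19.8, 20.5 and 22.5 TPM in the controls and 24.1, 11.98 and 16.6 TPM in Cend1-KO replicates 1, 3 and 4. One Cend1-KO library lay above all controls and the others below them. The log2 difference was -0.29 (95% confidence interval -0.88 to 0.29; limma adjusted p = 0.641) and, after scaling, -0.16 (-0.45 to 0.13; adjusted p = 0.436). As deposited it was -0.54 without Cend1-KO replicate 1 (adjusted p = 0.148) and -0.060 without Cend1-KO replicate 3 (adjusted p = 0.894).

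The INK4 genes best known from senescence were barely detected. Cdkn2a (chromosome 4, 89274471 to 89294653), which encodes p16 and the p53 activator p19ARF, was at 0.250, 0.607 and 0.529 TPM in controls and at 0.366, 0.142 and 0.248 TPM in Cend1-KO libraries. Cdkn2b (chromosome 4, 89306299 to 89311039), its neighbour 11645 bp away on the same strand, encodes the TGF-beta responsive inhibitor p15 and was at 0.298, 0.257 and 0.755 TPM in controls and 0.514, 0.362 and 1.91 TPM in Cend1-KO replicates 1, 3 and 4. Both pairs of groups overlapped. The highest Cdkn2b value came from Cend1-KO replicate 4, the library with the highest sum of lung epithelial markers (822.5 TPM). Cend1-KO replicate 1, with 499.9 TPM of these markers, had less Cdkn2b (0.514 TPM) than control replicate 4 (0.755 TPM). What part lung tissue had in the Cdkn2b level was not tested. The exact two-sided permutation test gave p = 0.2 for Cdkn2a and p = 0.5 for Cdkn2b, where 3 against 3 libraries cannot go below 0.1. With the filter lowered to 0.1 TPM the limma adjusted p was 0.470 for Cdkn2a and 0.569 for Cdkn2b.

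Of the CIP/KIP inhibitors, Cdkn1a (ENSMUSG00000023067; chromosome 17, 29090976 to 29100727, plus strand) encodes p21, the main p53-induced brake. It was at 47.6, 39.7 and 44.5 TPM in controls and 46.9, 33.4 and 45.6 TPM in Cend1-KO replicates 1, 3 and 4, so the groups overlapped. The log2 difference was -0.08 (95% confidence interval -0.58 to 0.43; limma adjusted p = 0.911) and, after scaling, 0.061 (-0.26 to 0.38; adjusted p = 0.812). AC167363.2, a transcript model still to be experimentally checked, overlaps Cdkn1a on the other strand and was at most 0.185 TPM.

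Cdkn1b (ENSMUSG00000003031; chromosome 6, 134920401 to 134925513, plus strand) encodes p27, whose amount in cells is set largely by protein degradation. It was at 23.7, 22.1 and 25.4 TPM in controls and 37.7, 18.5 and 25.9 TPM in Cend1-KO replicates 1, 3 and 4, which overlapped (log2 difference 0.14; 95% confidence interval -0.44 to 0.73; limma adjusted p = 0.845). Scaling brought the controls to 22.6, 22.4 and 22.6 TPM and the Cend1-KO libraries to 30.4, 25.9 and 26.4 TPM, with no overlap. The scaled difference of 0.28 (SE 0.13; -0.012 to 0.56) did not pass the test (adjusted p = 0.193). The remaining gene of that family, Cdkn1c, which encodes p57 and is imprinted, had a mean of 26.2 ± 4.63 TPM in controls and 49.7 ± 25.1 TPM in Cend1-KO libraries (adjusted p = 0.253). It rose after scaling, by 0.93 on the log2 scale (adjusted p = 0.0143). Cdkn1c lies on chromosome 7 (143458339 to 143461050), which also holds Cend1 (141426446 to 141429491). Any effect of that location was not tested.

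Ccng2 (ENSMUSG00000029385; chromosome 5, 93267257 to 93276231, plus strand) encodes cyclin G2, which is high in resting cells and slows the cycle when overexpressed. It was at 12.1, 11.8 and 12.6 TPM in controls and 27.6, 13.99 and 17.4 TPM in Cend1-KO replicates 1, 3 and 4, and every Cend1-KO library was above every control. The log2 difference was 0.59 (SE 0.27; 95% confidence interval 0.0099 to 1.18; limma adjusted p = 0.315), which did not pass. After scaling the levels were 11.6, 11.98 and 11.2 TPM in controls and 22.2, 19.6 and 17.7 TPM in Cend1-KO libraries. On that scale Ccng2 rose by 0.72 (SE 0.13; adjusted p = 0.0101), to 1.71 times the control level, and it passed whichever library was left out (adjusted p from 0.0176 to 0.0469). As deposited the difference was 0.80 without Cend1-KO replicate 3, which passed (adjusted p = 0.0403), and 0.33 without Cend1-KO replicate 1 (adjusted p = 0.323). It passed with no other single library left out.

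Its highest value as deposited and after scaling came from Cend1-KO replicate 1. The 8 endothelial markers summed to 1504 to 1824 TPM in controls and 2214 to 4871 TPM in Cend1-KO libraries. Most of that sum was Fabp4, at 1236 to 1517 TPM in controls and 1933 to 4012 TPM in Cend1-KO libraries. As deposited Pecam1, Tek, Emcn and Fabp4 did not overlap between the groups, while Kdr, Cdh5, Tie1 and Egfl7 did. Of all tested genes 24.3% did not overlap on that scale. The 8 fibroblast markers summed to 1243 to 2495 and 2987 to 4359 TPM. For 7 erythroid markers the sums were 1390 to 4474 and 10633 to 24500 TPM, and for 8 macrophage markers 597.9 to 925.4 and 783.0 to 1562 TPM. Of the macrophage sum Lyz2 alone was 278.6 to 477.7 TPM in controls and 490.5 to 1013.7 TPM in Cend1-KO libraries. The macrophage markers Csf1r, Cd68, Adgre1, C1qa and C1qb passed on neither scale. As deposited 0 endothelial, 1 fibroblast, 3 erythroid and 0 macrophage markers rose, and after scaling 4, 5, 5 and 3. The share of all genes that rose was 0.790% as deposited and 6.17% after scaling. The 6 adipocyte markers summed to at most 2.29 TPM in controls and 12.7 to 21.1 TPM in Cend1-KO libraries. All 3 that were tested, Adipoq, Cfd and Retn, rose on both scales. They passed the filter only through the Cend1-KO libraries, so the filter itself favoured a call in that direction. The part of these shifts in the level of Ccng2 was not tested.

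Ccng1 (ENSMUSG00000020326; chromosome 11, 40748552 to 40755311, minus strand) encodes cyclin G1, a partner of protein phosphatase 2A that feeds back on the p53 regulator MDM2. Its level was 349.1, 337.2 and 331.5 TPM in controls and 285.7, 314.3 and 295.3 TPM in Cend1-KO replicates 1, 3 and 4, so all 3 Cend1-KO libraries lay below the controls. The log2 difference of -0.19 (95% confidence interval -0.62 to 0.25) did not pass the limma test (adjusted p = 0.701). Scaling spread the Cend1-KO libraries to 230.2, 440.3 and 301.4 TPM, on both sides of the controls at 333.3, 342.2 and 294.4 TPM, and left a difference of -0.045 (adjusted p = 0.920). The sign of Ccng1 turned once mitochondrial, nuclear-copy and hemoglobin genes were taken out of the total, to 0.061 (adjusted p = 0.868).

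**Figure D2:**
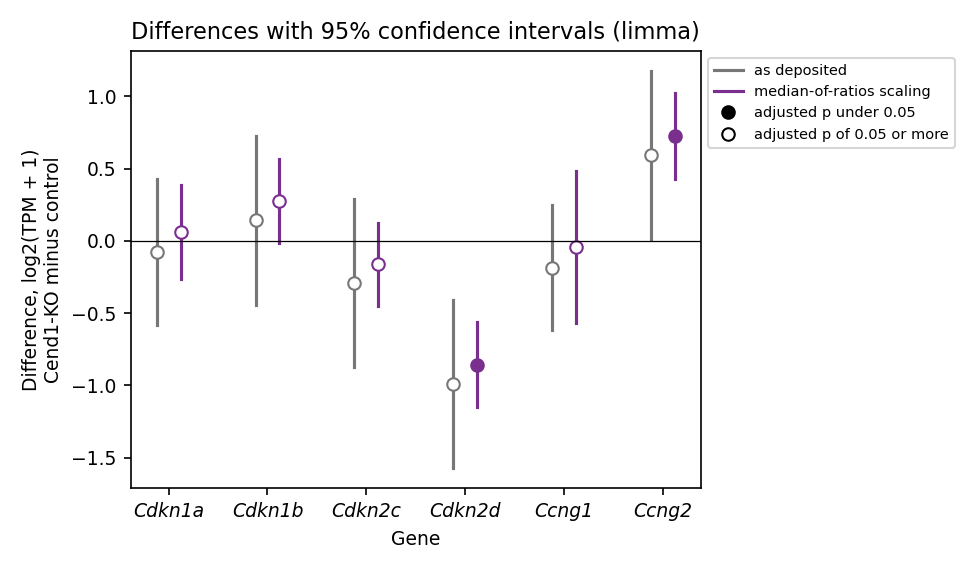
Difference between Cend1-KO and control on the log2(TPM + 1) scale for the 6 tested members, with 95% confidence intervals from limma, as deposited (grey) and after median-of-ratios scaling (purple). Filled points have an adjusted p under 0.05, which only Cdkn2d (-0.86) and Ccng2 (0.72) reached, both after scaling.

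Ratios of TPM within a library do not depend on how libraries are scaled. Which ratios to describe was decided after their values were seen. Of the 15 pairs of tested members, 10 had ratios that did not overlap between the groups, and of those 5 involved Cdkn2d, 5 involved Ccng2 (1 pair held both) and 1 held neither. As background, the ratio of each member to every other tested gene above 0 in all libraries did not overlap for 81.3% of genes with Cdkn2d, 74.9% with Ccng2, 45.3% with Cdkn1b, 35.9% with Cdkn2c, 29.2% with Cdkn1a and 16.4% with Ccng1. A ratio to Cdkn2d or Ccng2 without overlap was thus common.

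Within the INK4 family, Cdkn2c stood to Cdkn2d as 0.527, 0.539 and 0.535 to 1 in controls and as 0.867, 0.883 and 0.887 to 1 in Cend1-KO libraries. The SD was 0.0063 in controls and 0.011 in Cend1-KO libraries. Cdkn2d itself ranged among the Cend1-KO libraries from 13.6 to 27.8 TPM as deposited and from 19.0 to 22.4 TPM after scaling. A ratio cancels any scale that the genes of a library share. How often other pairs of genes have so small an SD was not tested. Cdkn1b stood to Cdkn2d as 0.632, 0.580 and 0.603 to 1 in controls and as 1.36, 1.36 and 1.39 to 1 in Cend1-KO libraries. Cdkn2d stood to Ccng2 as 3.10, 3.22 and 3.34 to 1 in controls and 1.01, 0.970 and 1.08 to 1 in Cend1-KO libraries, a difference of -1.66 between the mean log2 ratios. The transcripts of p19 and cyclin G2 stood near 3 to 1 in controls and near 1 to 1 in Cend1-KO libraries.

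The pair with neither was Cdkn1b to Cdkn2c, at 1.20, 1.08 and 1.13 in controls and 1.57, 1.54 and 1.56 in Cend1-KO libraries. For each of these 4 ratios the exact two-sided permutation test gave p = 0.1, the smallest that 3 against 3 libraries allow. Any ratio without overlap gives that value, so the test adds nothing to the lack of overlap. Cdkn1a to Cdkn1b overlapped, at 2.01, 1.798 and 1.75 in controls and 1.24, 1.81 and 1.76 in Cend1-KO replicates 1, 3 and 4 (exact permutation p = 0.5).

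**Figure D3:**
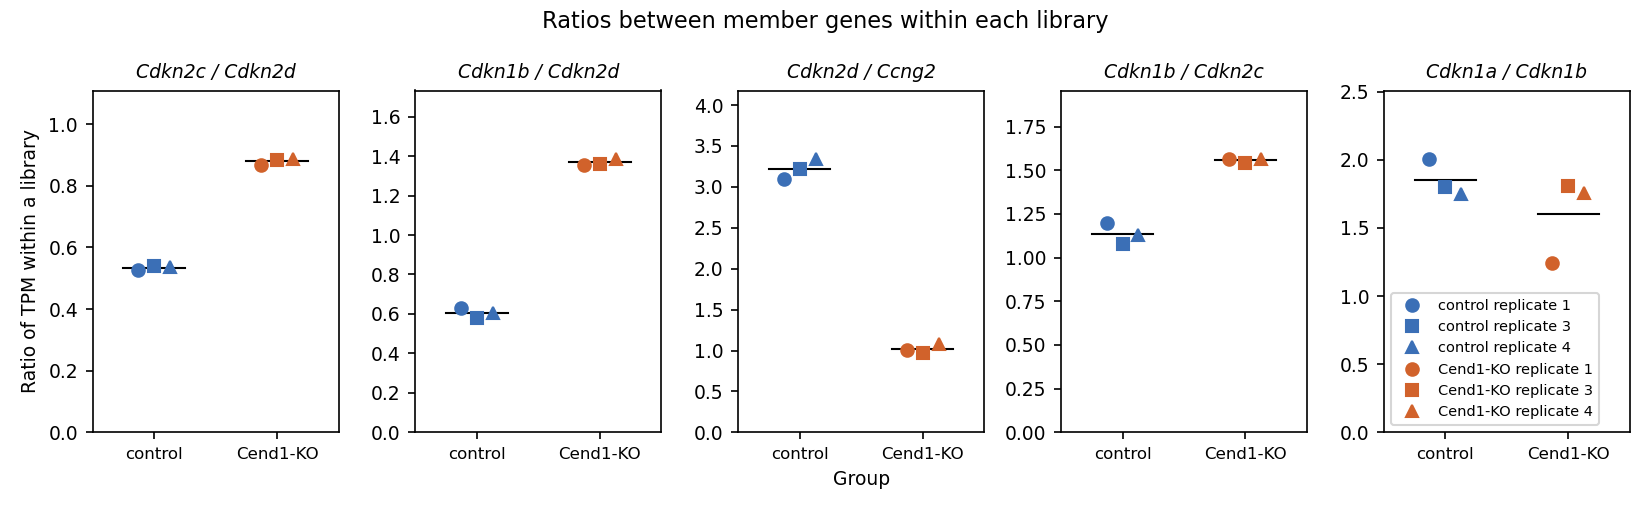
Ratio of TPM between pairs of member genes within each library (vertical axes start at 0), for 3 control and 3 Cend1-KO libraries with the group mean as a bar. Cdkn2c to Cdkn2d, Cdkn1b to Cdkn2d and Cdkn1b to Cdkn2c were higher in every Cend1-KO library, Cdkn2d to Ccng2 was lower, and Cdkn1a to Cdkn1b overlapped.

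The genes whose levels followed each member most closely over the 6 libraries were taken by Pearson correlation of log2(TPM + 1) among the 5508 tested genes that averaged 10 TPM or more and had a symbol other than a model, clone or mitochondrial name. The libraries share their group and their overall scale, so the coefficients are descriptions. Cdkn2d was followed by Smtn, H2-K1 and Lcmt1 (r = 0.999, 0.998 and 0.998), of which the class I histocompatibility gene H2-K1 fell in Cend1-KO (log2 difference -1.45, limma adjusted p = 0.0319). Ccng2 was followed by Tmem140, Xpa and Aaed1 (r = 0.997, 0.997 and 0.996). Cdkn1b was nearest to Tpst2, Shc1 and Tmem184b (r from 0.997 to 0.998) and Cdkn2c to Gpkow, Pym1 and Hmox2 (r from 0.997 to 0.998). Cdkn1a was nearest to Pld4, Stk11 and Stab1 (r from 0.988 to 0.992), and Ccng1 to Stau2, Cpt2 and Gapdh (r from 0.971 to 0.984), of which Gapdh fell (adjusted p = 0.0359).

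Of 9 kinases and cyclins that these proteins restrain, 2 fell as deposited and 4 after scaling, and 0 rose. The share of all tested genes that fell was 0.908% as deposited and 4.14% after scaling. The median difference of the 9 was -0.56 as deposited and -0.43 after scaling. Cyclin A2 (Ccna2), a partner of CDK2 and CDK1 in S and G2 phase, was at 19.3, 22.2 and 30.6 TPM in controls and 10.9, 6.53 and 6.80 TPM in Cend1-KO libraries (limma adjusted p = 0.0154). Cyclin E1 (Ccne1), which activates CDK2 at the entry to S phase, was at 2.79, 3.35 and 3.13 TPM and 1.498, 0.822 and 1.02 TPM (adjusted p = 0.0340). Cdk2 and the D-type cyclin Ccnd2 had adjusted p = 0.281 and 0.253 as deposited and fell after scaling (adjusted p = 0.0340 and 0.0477). Cdk4 and Cdk6, the kinases that INK4 proteins bind, did not pass on either scale (adjusted p = 0.377 and 0.658 as deposited, 0.115 and 0.497 after scaling).

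Of 8 genes of p27 phosphorylation and protein degradation, 0 passed as deposited (median difference -0.31). After scaling 1 of the 8 fell (median -0.18), against 4.14% of all genes. That gene was Cks1b, an adaptor that lets the ubiquitin ligase SCF-SKP2 bind p27. It was at 23.6, 35.5 and 31.7 TPM in controls and 19.6, 10.6 and 16.4 TPM in Cend1-KO libraries (limma adjusted p = 0.120 as deposited and 0.0191 after scaling). Fbxw7, whose ligase removes cyclin E, had adjusted p = 0.344 and 0.143. Skp2 itself was at 0.879, 1.06 and 1.56 TPM and 1.46, 0.507 and 1.06 TPM (adjusted p = 0.831).

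Cdkn1a and Ccng1 are p53 targets, and a list of 25 genes for p53, its regulators and other targets held 23 that were tested. As deposited 1 rose and 0 fell, against 0.790% and 0.908% of all genes. The median difference was -0.11, close to that of all genes. After scaling 3 rose and 2 fell, against 6.17% and 4.14% of all genes, with a median of -0.013. The gene that rose as deposited was Ddit4, an inhibitor of mTORC1 signalling that also answers to hypoxia and glucocorticoids, at 24.1, 22.9 and 19.5 TPM in controls and 87.5, 34.0 and 63.8 TPM in Cend1-KO libraries (limma adjusted p = 0.0440). Fas, a death receptor, and Trp53inp1, a stress-induced nuclear protein, rose after scaling (adjusted p = 0.00952 and 0.0322), and Aen, an apoptosis-linked nuclease, and Tigar, a fructose bisphosphatase, fell (adjusted p = 0.0281 and 0.0335). Mdm2, the ligase of p53, was at 27.5, 27.4 and 25.8 TPM and 25.4, 18.4 and 25.1 TPM (adjusted p = 0.675).

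FoxO factors act on Cdkn1b and Ccng2. Of 16 FoxO genes and targets 0 passed as deposited (median difference 0.26). After scaling 2 rose and 0 fell (median 0.37), against 6.17% and 4.14% of all genes. Those were Pik3ip1, an inhibitor of PI3-kinase (limma adjusted p = 0.288 as deposited and 0.00950 after scaling), and Irs2, an adaptor of the insulin receptor (adjusted p = 0.210 and 0.0351). Pik3ip1 was at 12.2, 10.1 and 11.7 TPM in controls and 22.5, 14.2 and 16.6 TPM in Cend1-KO replicates 1, 3 and 4, and the groups did not overlap. Trim63, a muscle ubiquitin ligase and FoxO target, was at 113.7, 76.9 and 90.0 TPM and 67.8, 54.9 and 70.1 TPM (adjusted p = 0.308), a difference of the other sign.

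Among 11 Polycomb and demethylase genes that act on the Cdkn2a locus, 0 passed as deposited (median difference -0.087). After scaling 1 fell (median 0.049), against 4.14% of all genes. That gene was Ezh2, the methyltransferase of the Polycomb repressive complex, at 7.46, 9.69 and 10.2 TPM in controls and 7.30, 3.88 and 4.96 TPM in Cend1-KO libraries (limma adjusted p = 0.236 and, after scaling, 0.0373). Kdm1a, which encodes LSD1, had adjusted p = 0.503 and 0.200. Of the 10 cycling-cell markers 5 fell as deposited, namely Top2a, Ccnb1, Plk1, Ube2c and Rrm2, and all 10 after scaling. The share of all genes that fell was 0.908% as deposited and 4.14% after scaling. Among markers of other cell types those called as deposited were all higher: Lum, Hbb-bs, Hbb-bt, Alas2, Adipoq, Cfd and Retn. Of these, Adipoq, Cfd and Retn passed the filter only through the Cend1-KO libraries, which favoured a call in that direction.

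**Figure D4:**
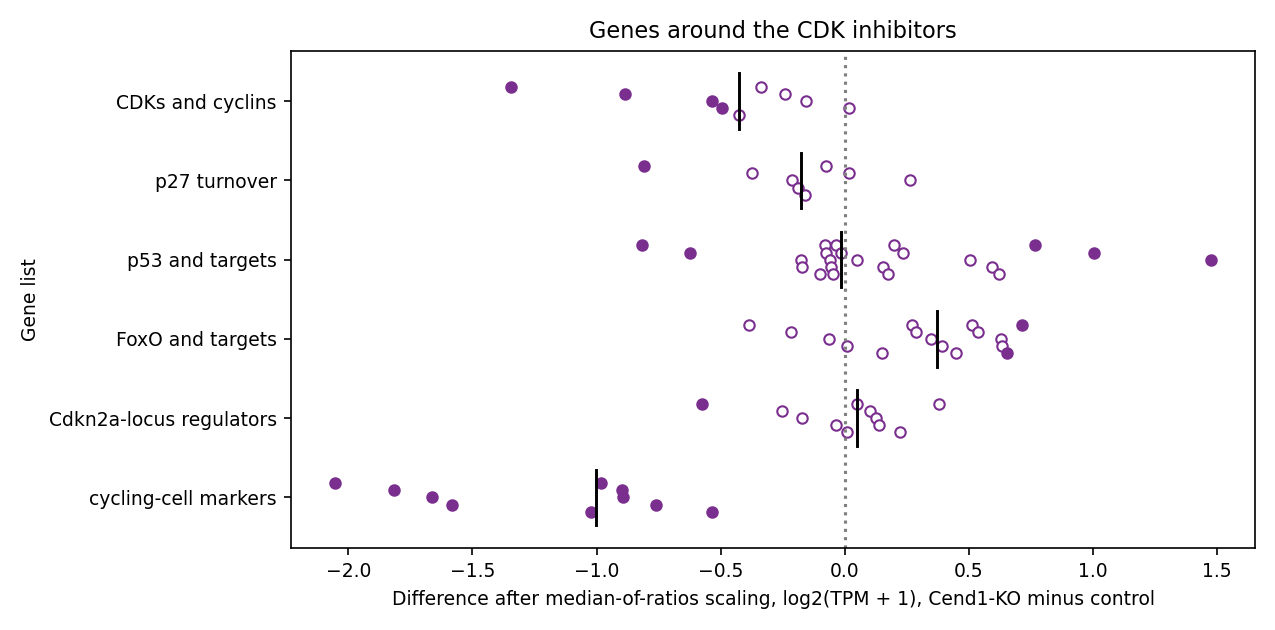
Difference of each tested gene after median-of-ratios scaling, on the log2(TPM + 1) scale, in the lists around the CDK inhibitors, with filled points for an adjusted p under 0.05, list medians as bars and the median of all genes (0.0020) as a dotted line. The cycling-cell markers (median -1.004) and the CDKs and cyclins (-0.43) lie to the left, the FoxO genes (0.37) mostly to the right, and the p53 genes (-0.013) on both sides.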

How the data were processed

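Total RNA of heart ventricles was extracted with TRIzol and sequenced from NEBNext Ultra libraries, per the labels' protocols. The submitters' processing notes name mm10, featureCounts 1.5.0-p3, HISAT2 2.0.5, fastp and CASAVA. The deposited table holds TPM values made by the authors: they are not whole and sum to 1000000 in each library. The sources used here do not say how TPM was derived or from which annotation. TPM keeps no depth, so no counting interval is given.

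The sample descriptions tie each column to its library, whose number can differ from the column's, and groups and replicate numbers (1, 3 and 4) came from the titles. Symbols and coordinates came from GENCODE M21, which matched 52029 of 57010 identifiers. A gene was tested if 3 or more libraries had 1 TPM or more. The test was limma 3.58.1 in R 4.3.3 on log2(TPM + 1), using its trend and robust options. It was checked on simulated data with independent noise for each gene and no scale shared by a library. That check therefore does not cover the differences in scale between these libraries. A pseudocount of 1 TPM understates the change of low genes. Differences are Cend1-KO minus control, and adjusted p-values are Benjamini-Hochberg over all 13542 genes. "Rose", "fell" and "passed" mean an adjusted p under 0.05. Members and lists were chosen with earlier results of these data known. Named are Cend1, the members, Cdkn1c, called genes of the lists, the 2 smallest p-values of each pathway list and the 3 genes most like each member. Skp2, Cdk4, Cdk6, Mdm2, Trp53inp1, Tigar and Trim63 were named after their values were seen. Same-numbered libraries did not deviate together, so the block is given only as an alternative. Cell-type markers are 8 genes a list or fewer and the cycling-cell markers are 10, summed.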

Additional observations from a re-analysis of the deposited data

How the results depend on the processing

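As deposited 0 members were called higher and 0 lower. Median-of-ratios scaling, upper-quartile scaling, removal of mitochondrial, nuclear-copy and hemoglobin genes, and the Xist covariate after scaling each called 1 higher (Ccng2) and 1 lower (Cdkn2d), and the replicate block and the Xist covariate as deposited called 1 lower (Cdkn2d). Leaving out 1 library gave 0 to 1 in each direction: as deposited Cdkn2d was called without Cend1-KO replicate 1 or 3, and Ccng2 without Cend1-KO replicate 3. Over all genes, 107 higher and 123 lower became 836 and 560 (median-of-ratios), 823 and 582 (upper-quartile), 727 and 272 (those genes removed), 0 and 0 (no filter, with 2894 at an unadjusted p under 0.05), 55 and 61 (filter at 5 TPM), 81 and 81 (filter at 0.1 TPM), 366 and 372 (replicate block), 274 and 270 (Xist covariate) and 1038 and 687 (Xist covariate after scaling). With 1 library left out they ran from 39 to 804 higher and from 37 to 565 lower, both scales included. As deposited the total of 230 became 113, 76 and 110 without control replicate 1, control replicate 3 and Cend1-KO replicate 4, and 669 and 825 without Cend1-KO replicates 1 and 3. Pairing was checked by the correlation of deviations from the group means, which for numbers 1, 3 and 4 was -0.17, 0.044 and -0.12. Between libraries of different numbers it ran from -0.11 to 0.20. With 3 libraries a group this check cannot tell whether same-numbered libraries were prepared together. The block moved the calls from 230 to 738 (Cdkn2d limma adjusted p = 0.0116). The SE of Cdkn2d was 0.279 with the block and 0.270 without it, at the same difference. Its smaller p with the block thus came from the degrees of freedom that limma assumed and not from a smaller SE. The sign of Cdkn1a, -0.08 as deposited, was positive after median-of-ratios scaling (0.061, also with the Xist covariate), upper-quartile scaling (0.055) and removal of those genes (0.17), and ran from -0.16 to 0.16 with 1 library left out. Ccng1 reached 0.061 with those genes removed and ran from -0.29 to 0.17, and Cdkn1b from -0.11 to 0.39. With 1 library left out Ccng2 ran from 0.33 to 0.80 and Cdkn2c from -0.54 to -0.060. The cause of these changes was not tested. Pseudocounts of 0.1 and 0.5, no trend and no robust prior changed no member's call or sign. Depth is unknown, so what it limits could not be stated.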
